A study of Mus musculus with 8 samples.

Results

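The mature miRNAs of mouse cells obtained by retinoic acid differentiation (RA-DIFF) were compared between a library labelled as huntingtin-null and one labelled as wild type. Members were all mature miRNAs of the deposited small RNA count table with at least 10 counts in either RA-DIFF library, which gave 744 of the 1073 listed miRNAs. The limit lay in a thinly counted range, with 16 members at exactly 10 counts in the higher library and 12 miRNAs left out at 9. Of the members, 440 had at least 100 counts in the higher library and 304 had 10 to 99, and no member had 0 counts in one of the libraries.

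Both RA-DIFF libraries came from mouse embryonic stem cell (ESC) lines, 1 wild-type line and 1 line homozygous for the Hdh ex4/5 allele, a targeted null allele of the mouse huntingtin gene Htt. ESC had been kept on irradiated mouse embryonic fibroblasts or on gelatin, were passaged 4 times without feeder cells, and were then seeded to form embryoid bodies. Retinoic acid was present in the later part of the embryoid body culture, after which the bodies were dissociated and plated on poly-ornithine and laminin, so that the RA-DIFF cells are a mixed population and carried the same treatment in both groups. Small RNA was also sequenced from undifferentiated ESC of each line, and polyadenylated RNA from cells of the same 4 labels. Each of these conditions has 1 library, so a difference between libraries has no replicate check, no result below rests on a test, and a line, a culture and a library preparation cannot be told apart from the genotype.

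A miRNA is cut from the arms of a hairpin in a primary transcript, and the arm is named 5p or 3p by its side of the hairpin. It pairs with messenger RNAs mainly through its seed, bases 2 to 8, so miRNAs with one seed share many targets. In the mouse ESC the miR-290 to miR-295 cluster is the leading set of miRNAs, the related miR-302 to miR-367 cluster is used in the epiblast and its derivatives, and let-7 accumulates as cells leave pluripotency, while miR-9 and miR-124 mark neural cells and miR-10a and miR-10b lie among the Hox genes that retinoic acid activates.

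The mature sequences below are those on which the results turn. They were taken from RefSeq on GRCm38.p6, which held an entry for 631 of the 744 members in the table used here, and the seed is in capitals. The first set shows the 3p arms of the miR-290 to miR-295 cluster on chromosome 7 and of the miR-302 to miR-367 cluster on chromosome 3, because members of both clusters carry the seed AAGUGCU and differed in opposite directions. In miR-302c-3p the RefSeq sequence starts 1 base later, so the same letters fall 1 base earlier, and miR-367-3p carries another seed.
miR-291a-3p: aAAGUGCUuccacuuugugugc
miR-294-3p: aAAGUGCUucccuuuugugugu
miR-295-3p: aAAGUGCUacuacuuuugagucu
miR-302b-3p: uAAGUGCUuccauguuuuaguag
miR-302d-3p: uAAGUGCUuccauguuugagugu
miR-302c-3p: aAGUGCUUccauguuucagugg
miR-367-3p: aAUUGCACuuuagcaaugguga

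Among the 5p arms of the chromosome 7 cluster, 3 share the seed CUCAAAC, shown for the pair with the most counts among them.
miR-292a-5p: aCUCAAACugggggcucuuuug
miR-293-5p: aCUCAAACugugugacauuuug

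The miR-181 family is shown because the 7 listed arms were all higher in the library labelled Htt-null. The 5p arms share a seed, whereas the 3p arms differ between the copies on chromosome 1 and chromosome 2 and so show which copy was read.
miR-181a-5p: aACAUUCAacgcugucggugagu
miR-181b-5p: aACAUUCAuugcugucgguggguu
miR-181c-5p: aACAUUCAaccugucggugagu
miR-181d-5p: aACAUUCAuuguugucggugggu
miR-181a-1-3p: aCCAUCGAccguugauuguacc
miR-181a-2-3p: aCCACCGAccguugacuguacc

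The let-7 and miR-10 families show how close members can be. Counting positions from 1 at the 5′ end, miR-10a-5p and miR-10b-5p differ by the substitution U12A, let-7a-5p and let-7c-5p by A19G, and let-7a-5p and let-7f-5p by G12A.
let-7a-5p: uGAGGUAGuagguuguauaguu
let-7c-5p: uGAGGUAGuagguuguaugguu
let-7f-5p: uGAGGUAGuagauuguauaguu
let-7g-5p: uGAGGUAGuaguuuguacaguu
let-7i-5p: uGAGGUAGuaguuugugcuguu
miR-98-5p: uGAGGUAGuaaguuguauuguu
miR-10a-5p: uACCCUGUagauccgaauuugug
miR-10b-5p: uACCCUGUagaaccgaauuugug

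The miR-199 and miR-214 set held the highest ratios, and the miR-200 family and miRNAs of chromosome 12 held some of the lowest.
miR-199a-5p: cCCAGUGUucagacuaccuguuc
miR-199a-3p: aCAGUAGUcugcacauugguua
miR-214-3p: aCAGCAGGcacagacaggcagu
miR-200b-3p: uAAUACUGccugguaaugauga
miR-200c-3p: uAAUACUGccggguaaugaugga
miR-429-3p: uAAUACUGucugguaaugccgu
miR-200a-3p: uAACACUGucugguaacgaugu
miR-141-3p: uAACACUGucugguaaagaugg
miR-299a-5p: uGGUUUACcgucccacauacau
miR-299a-3p: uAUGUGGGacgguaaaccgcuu
miR-494-3p: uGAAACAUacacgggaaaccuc
miR-154-3p: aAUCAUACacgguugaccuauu

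The RA-DIFF library labelled Htt-null held 24290346 counts and the one labelled wild type 25656673, and the ESC libraries 11976744 and 12888905. Most of the RA-DIFF counts were of miR-10a-5p and miR-10b-5p, which together took 83.3% of the library labelled Htt-null (exact binomial interval 83.2% to 83.3%) and 79.9% of the one labelled wild type (79.9% to 79.9%), against 0.293% and 0.438% in ESC. Because 2 miRNAs filled these libraries, counts were scaled by the trimmed mean of M values (TMM), which lifts each RA-DIFF log2 ratio by 0.48 over scaling by library size. Each log2 ratio below is labelled Htt-null over labelled wild type, with an interval at the 95% level that covers counting error only. The median log2 ratio over all members was -0.06 (quartiles -0.46 and 0.39), and it was -0.54 with library size alone, so a list is best read against that median, from which its distance does not change with scaling. These distances were 2.48 for miR-199 and miR-214, 1.67 for miR-181, 1.42 for miR-290 to miR-295, 1.13 for let-7, -0.34 for the Dlk1-Dio3 region, -0.79 for miR-200 and -1.10 for miR-302 to miR-367.

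The labels of the RA-DIFF pair need care. By RNA-seq, Htt was counted 9722 times in RA-DIFF under the Htt-null label against 8212 times under the wild-type label, which is a log2 ratio of 0.43 (interval 0.39 to 0.47) and goes against the label. In ESC the counts of Htt were 7260 and 14385 (log2 ratio -0.58). The count runs over the whole gene, and exons outside the targeted ones are still read. No miRNA reports the allele, so the small RNA libraries carry no such check of their own, and exchanging the labels would turn the sign of every RA-DIFF ratio. If the labels were exchanged in a single assay, each likeness of direction between messenger RNAs and miRNAs given below would be reversed. Samples are therefore called the library labelled Htt-null and the library labelled wild type throughout.

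Past a log2 ratio of 0.75, the limit in the study's methods, 116 of the 744 members (15.6%) were higher and 111 (14.9%) were lower in the library labelled Htt-null. With library size alone these counts were 57 and 271, and with library size after removal of miR-10a-5p and miR-10b-5p they were 87 and 171. Among the 440 members with at least 100 counts, 55 (12.5%) were higher and 47 (10.7%) were lower past the limit, and for each of these the counting interval excluded a ratio of 1. Members with 10 to 99 counts passed the limit more often (41.1% against 23.2%), and their median interval was 1.91 wide on the log2 scale, against 0.31 for the better counted members. In the plot of level against ratio the widest scatter lies at the lowest levels, and whole families sit apart from zero at high levels.

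**Figure D1:**
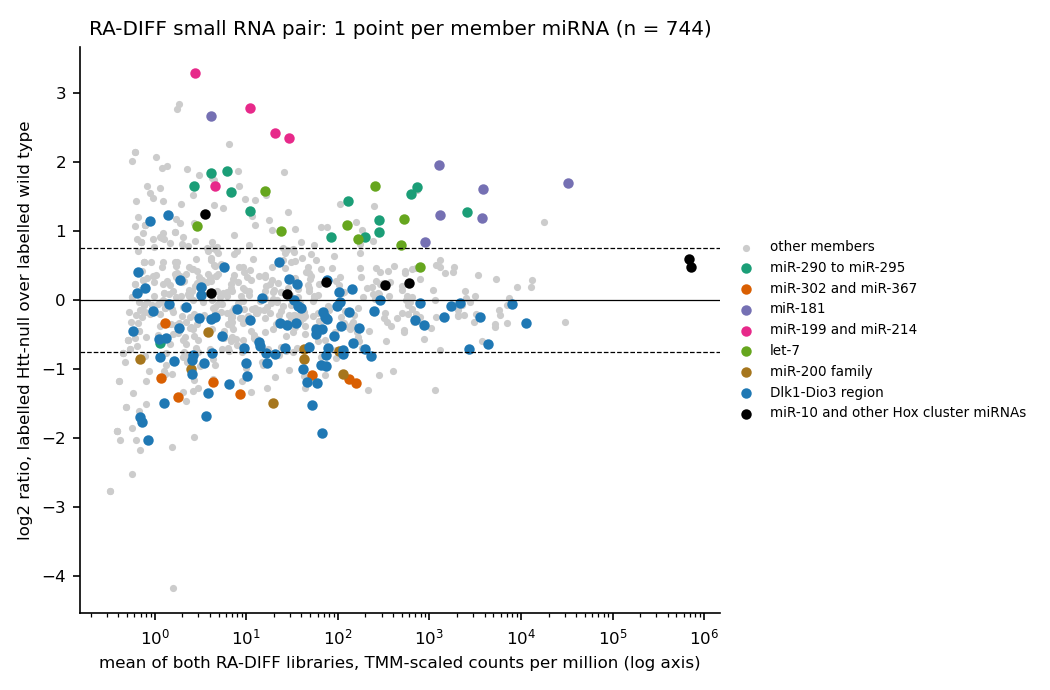
Each point is 1 of the 744 members, with the mean of both RA-DIFF libraries in TMM-scaled CPM on a log axis and the log2 ratio (labelled Htt-null over labelled wild type) on the vertical axis. Dashed lines mark 0.75 in each direction. miR-10a-5p and miR-10b-5p lie at the far right, near 0.60 and 0.49, and miR-181a-5p is the most abundant member past the limit, at 1.70.

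The 3 largest ratios among members with at least 100 counts belonged to miR-199 and miR-214, which are known from mesenchyme and are cut from the transcript Dnm3os on chromosome 1. All 5 members of this set were higher past the limit in the library labelled Htt-null (15.6% over all members), with a median of 2.42. miR-214-3p had 233 counts against 50 (log2 ratio 2.78, interval 2.33 to 3.25), a difference of 6.87-fold. miR-199a-5p had 422 against 116 (2.42, 2.12 to 2.73) and miR-199a-3p 587 against 169 (2.36, 2.11 to 2.61). The passenger arm miR-214-5p had 60 against 9 counts and miR-199b-5p, from another locus, 83 against 39. miR-199a has 2 copies, at chr1:162217844-162217866 inside Dnm3os and on chromosome 9 on the strand opposite to Dnm2, and its counts cannot be assigned to one of them. In the RNA-seq pair Dnm3os had 3186 counts against 1223 (log2 ratio 1.57, interval 1.47 to 1.66), while Dnm2 had 9848 against 10167 (0.14).

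Messenger RNA markers of mesenchyme had the same direction as these miRNAs. All 12 listed markers were higher in the RNA-seq library labelled Htt-null (median 1.89), among them the contractile genes Acta2 (62554 against 4593 counts) and Tagln (15892 against 1378) and the collagen Col1a1 (19381 against 5295). Their summed level was 2963 TMM-scaled CPM (counts scaled to a common library size) against 785, and 1220 and 1361 in ESC. The part of such cells in the miRNA ratios was not tested, and in bulk RNA more cells of a type cannot be told apart from more RNA per cell. Other miRNAs of smooth muscle and mesenchyme did not share one direction. Of 14 members, 4 were higher and 1 was lower past the limit (15.6% and 14.9% over all members), and the median of -0.05 turned positive with DESeq2 size factors. miR-143-3p, abundant in smooth muscle, had 13347 counts against 6508 (1.60) and miR-145a-5p, of the same cluster, 64 against 56 (0.75), whereas miR-21a-5p had 26844 against 41375 (-0.06) and miR-29b-3p 33 against 107 (-1.14).

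The endothelial miR-126 followed the same direction at low levels. miR-126a-3p had 1840 counts against 1027 (log2 ratio 1.40, interval 1.29 to 1.51) and miR-126b-3p 152 against 71 (1.66). Its host Egfl7 had 501 against 499 counts (0.19) in RNA-seq. The part of endothelial cells was not tested. Of the 8 endothelial markers 6 were higher and 2 were lower, with a summed level of 94.9 against 30.3 scaled CPM, the vascular receptor Kdr at 7060 against 2011 counts and the adhesion molecule Pecam1 at 128 against 374. Blood miRNAs had low counts, with 5 of 6 members above 0 and 3 higher past the limit (15.6% over all members). Only 2 of the 6 had at least 100 counts, and 41.1% of all members below 100 counts passed the limit in either direction. miR-150-5p had 43 against 17 counts, miR-142a-5p 21 against 10 and miR-155-5p, in the other direction, 158 against 382. Of the 7 blood markers 4 were under 10 counts in both RNA-seq libraries, embryonic globin Hbb-bh1 and the leukocyte antigen Ptprc among them, and the other 3 were lower.

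The miR-181 family held the largest ratio among the 10 most abundant members. All 7 listed arms were higher past the limit (15.6% over all members), from 0.85 to 2.66, with a median of 1.61, and their summed counts were 797426 against 382737. miR-181a-5p had 603588 counts against 273665 (log2 ratio 1.70, interval 1.69 to 1.71), a difference of 3.25-fold, and miR-181b-5p 70336 against 33948 (1.61). These arms are made from clusters on chromosome 1 and chromosome 2, and their 3p arms were both higher. miR-181a-1-3p, at chr1:137966508-137966529, had 24481 against 9318 (1.95) and miR-181a-2-3p, at chr2:38852785-38852806, 86 against 20 (2.66, interval 1.95 to 3.45). The cluster on chromosome 8 had smaller ratios, with miR-181c-5p at 62966 against 40630 (1.19) and miR-181d-5p at 13824 against 11346 (0.85), so that the intervals of the 181a and 181c arms did not overlap. The 3 measured arms outside the list had few counts. miR-181b-2-3p had 221 against 119 (1.45), miR-181b-1-3p 13 against 9 (1.09, interval -0.25 to 2.50) and miR-181d-3p 26 against 32 (0.26), the last turning negative with library size alone. In ESC the family looked different in level and in ratio: miR-181a-5p had 2088 counts in the Htt-null library against 1953, and miR-181c-5p 109543 against 81424.

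Both families that mark pluripotent cells differed between the libraries, in opposite directions. Of the 14 members of the miR-290 to miR-295 cluster (from chr7:3218639-3218660, miR-290a-5p, to chr7:3220815-3220837, miR-295-3p), 13 were higher past the limit (15.6% over all members) and miR-291b-3p, with 11 counts against 25, was lower within its counting interval (-1.80 to 0.45). Their median was 1.36. miR-295-3p, the most abundant, had 44739 counts against 27199 (log2 ratio 1.28, interval 1.26 to 1.30), miR-292a-5p had 13554 against 6379 (1.65), miR-293-5p 11222 against 5721 (1.53) and miR-294-3p 4523 against 3369 (0.99). The seed CUCAAAC, of miR-290a-5p, miR-292a-5p and miR-293-5p, had 3 of 3 members past the limit, and their summed counts were 24963 against 12213.

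By contrast, each of the 8 members of the miR-302 to miR-367 cluster was lower in the library labelled Htt-null, 7 of them past the limit (14.9% over all members), with a median of -1.16. miR-302d-3p, at chr3:127545665-127545687, had 1169 counts against 3972 (log2 ratio -1.20, interval -1.30 to -1.11), and miR-302b-3p had 1007 against 3288 (-1.15). miR-302a-3p had 407 against 1268 (-1.08), miR-302c-3p 58 against 220 (-1.36) and miR-367-3p 32 against 107 (-1.18). The exception to the limit was miR-302c-5p, at 14 against 26 counts. For the seed AAGUGCU shown above, the 5 members with a sequence entry summed to 53726 counts against 39079, a log2 ratio of 1.02 for the seed as a whole, since miR-295-3p outnumbers miR-302. Messenger RNAs of pluripotency took the direction of miR-302: 7 of 8 listed markers were lower in the RNA-seq library labelled Htt-null (median -2.88), with the core factor Pou5f1 at 123 against 1324 counts, Nanog at 193 against 1009 and Klf4, the exception, at 634 against 575. Their summed level was 13.4 against 55.6 scaled CPM, compared with 4638 and 5425 in ESC, so both RA-DIFF libraries were far below ESC.

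The let-7 family, which promotes the exit from pluripotency, was higher in its main arms. All 9 listed 5p arms, with the seed GAGGUAG, were above 0 and 8 passed the limit (15.6% higher past it over all members), with a median of 1.07. let-7i-5p had 4674 counts against 2184 (log2 ratio 1.66, interval 1.58 to 1.73), miR-98-5p 291 against 143 (1.59), let-7f-5p 8884 against 5792 (1.18), let-7g-5p 2077 against 1438 (1.09) and let-7a-5p 7615 against 6460 (0.80). let-7c-5p, the most abundant, was the one within the limit, at 11281 against 11880 (0.49). Reads that end before the last bases cannot separate let-7a-5p from let-7c-5p, and only uniquely mapped reads were counted, so the split within the family is uncertain. The sum over these 5p arms was 37848 against 30279 (0.88). Of the 8 measured 3p arms, outside the list, 7 were above 0 and 5 past the limit, and 5 were above 0 with library size alone. The messenger RNAs of Lin28a and Lin28b, whose proteins block let-7 maturation, were chosen for a look after the let-7 values were seen. Lin28a had 713 counts against 2913 (log2 ratio -1.84) and Lin28b 1494 against 4885 (-1.52), and Trim71, itself a target of let-7, 2048 against 2895 (-0.31). Dicer1, Drosha and Dgcr8, which process miRNAs in general, lay between -0.12 and 0.17. The part of these genes in the let-7 ratios was not tested.

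**Figure D2:**
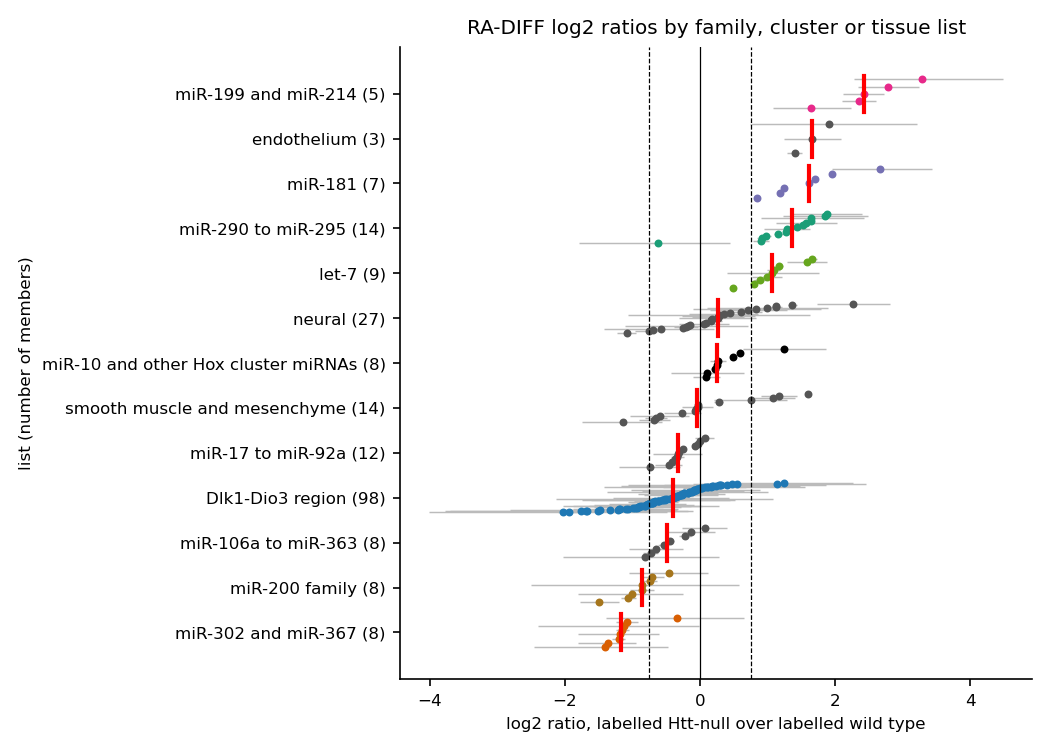
Each point is a member of a list, with its log2 ratio (labelled Htt-null over labelled wild type) on the horizontal axis, its counting interval in grey and the list's median in red. The number of members stands beside each list, and dashed lines mark 0.75 in each direction. miR-199 and miR-214, miR-181, miR-290 to miR-295 and let-7 lie to the right (medians 2.42, 1.61, 1.36 and 1.07), and miR-200 and miR-302 to the left (-0.86 and -1.16), while the medians of the neural and Hox lists change sign with library size alone and that of smooth muscle and mesenchyme with DESeq2 size factors.

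The miR-200 family, which keeps cells epithelial, was lower in each of its 8 members, 5 of them past the limit (14.9% over all members), with a median of -0.86. Its members lie in a cluster on chromosome 4 and one on chromosome 6. From chromosome 4, miR-200b-3p had 897 counts against 2764 (log2 ratio -1.06, interval -1.17 to -0.95), miR-200a-3p 373 against 996 (-0.86) and miR-429-3p 939 against 2314 (-0.74). From chromosome 6, miR-200c-3p had 126 against 521 (-1.49) and miR-141-3p 395 against 952 (-0.71). The 3 members with the seed AAUACUG summed to 1962 counts against 5599. The part of epithelial cells in these ratios was not tested, and epithelial messenger RNAs were lower in 5 of 7 (median -0.66), with the cadherin Cdh1 at 1123 against 2089 counts and the splicing factor Esrp1 at 32 against 285. Krt8 (345 against 301, log2 ratio 0.38) and Krt18 (265 against 171, 0.82) were higher.

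Other epithelial and endodermal miRNAs had no common direction: 5 of 7 were above 0 and none of them past the limit (15.6% over all members), 2 were lower past it (14.9%), and the median of 0.15 became negative with library size, with or without miR-10a-5p and miR-10b-5p. The lower pair were miR-205-5p of squamous epithelium (1502 against 5469 counts, log2 ratio -1.30) and miR-122-5p of liver (78 against 288, -1.32), whose other arm miR-122-3p had 2 counts against 53 (-4.17, interval -7.25 to -2.24). miR-375-3p of endocrine cells had 2421 against 2822 (0.34) and miR-192-5p 6524 against 8307 (0.21). Messenger RNAs of primitive and visceral endoderm gave 4 higher and 3 lower of the 7 with at least 10 counts. The chromosome 11 cluster of miR-216a, miR-216b and miR-217, known from the pancreas, was picked out after its values were seen because its arms had 0 or 1 counts in ESC. All 6 arms were below 0. miR-217-5p had 833 counts against 2197 (-0.84), miR-216b-5p 1308 against 2495 (-0.37) and miR-216a-5p 268 against 567 (-0.52). Of 4 striated muscle miRNAs 3 were below 0, 2 of them past the limit (14.9% over all members), and 1 of the 4 had at least 100 counts. miR-208b-3p had 13 against 76 (-1.99), miR-499-5p 119 against 423 (-1.27), miR-133a-3p 52 against 87 (-0.18) and miR-206-3p 19 against 15 (0.90).

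Neural miRNAs were split. Of 27 members, 19 were above 0 and 6 past the limit, 8 were below 0 and 2 past it, beside 15.6% and 14.9% of all members past it. The median of 0.27 became negative with library size alone. miR-9-5p, abundant in neural progenitors, had 298424 counts against 201355 (log2 ratio 1.13, interval 1.12 to 1.14), and its other arm miR-9-3p 2602 against 1756 (1.13). miR-488-3p had 4371 against 2492 (1.37) and miR-383-5p, with 0 counts in both ESC libraries, 130 against 40 (2.26). miR-124-3p, the leading miRNA of neurons, had 1844 against 2417 (0.17) and miR-128-3p 3036 against 3936 (0.19). At the lower end, miR-129-2-3p had 556 against 1742 (-1.09) and miR-153-3p 1680 against 4018 (-0.70). Messenger RNA markers of neurons were lower in 9 of 10 (median -1.30, summed level 1347 against 2972 scaled CPM), with Tubb3 at 26724 against 98047 counts, and those of neural progenitors were lower in 5 of 8 (median -0.33, summed level 5632 against 4459). The progenitor sum was led by the 3 that were higher, Vim (286130 against 191786 counts), Fabp7 and Nes.

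The pair of miRNAs that dominated the libraries lay within the limit and above the upper quartile of all members. miR-10b-5p, at chr2:74726074-74726096 in the Hoxd cluster, had 10131529 counts against 10657770 (log2 ratio 0.49) and miR-10a-5p, at chr11:96317186-96317208 in the Hoxb cluster, 10090451 against 9846694 (0.60). With library size alone these ratios were 0.01 and 0.11. All 8 members from Hox clusters were above 0, 1 of them past the limit (15.6% over all members), with a median of 0.26 that became negative with library size alone. Their passenger arms miR-10a-3p (4217 against 5350, 0.22) and miR-10b-3p (986 against 1207, 0.27) had smaller ratios than the main arms. The other miRNAs among the 10 most abundant, apart from miR-181a-5p and miR-9-5p, lay within the limit: miR-92a-3p had 331297 against 606148 (-0.31), miR-92b-3p 178176 against 214154 (0.29), miR-182-5p 165153 against 213187 (0.19), miR-127-3p 122315 against 227985 (-0.34), miR-30e-5p 117047 against 151257 (0.19) and miR-434-3p 94569 against 144504 (-0.05).

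Clusters known from proliferating cells lay slightly below 0. Over all members the median was -0.06, 396 of 744 were below 0 and 14.9% were lower past the limit. The miR-17 to miR-92a cluster had 10 of 12 members below 0 and none past the limit (median -0.32), its relative miR-106a to miR-363 on the X chromosome 7 of 8 below 0 and 1 past it (-0.49), and miR-106b to miR-25 all 6 below 0 and none past it (-0.23). miR-15 and miR-16 had 8 of 11 below 0 (-0.38), with miR-16-5p at 36034 counts against 79742 (-0.59), and the listed arms of miR-130 and miR-301 had 5 of 6 (-0.45). Other lists with at most 1 member past the limit were the listed arms of miR-34 and miR-449 (-0.30, none past the limit), the sensory miR-183 cluster (-0.18, none past it), miR-125 with miR-99 and miR-100 (0.24, none past it) and miR-23 with miR-27 and miR-24 (0.05, 1 past it), the last pair of medians turning negative with library size alone. The pair miR-221-3p and miR-222-3p, of one X-linked cluster and chosen after their values were seen, had 2197 against 6906 (-1.09) and 67 against 222 (-1.17).

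The largest block of linked members lies in the imprinted Dlk1-Dio3 region on chromosome 12, where the miRNAs are expressed from the maternal chromosome. Of its 98 members, 80 were below 0, 29 lower past the limit (14.9% over all members) and 2 higher past it (15.6%), with a median of -0.40. Of the 66 with at least 100 counts, 57 were below 0, 16 lower past the limit (10.7% over all such members) and 0 higher past it (12.5%). miR-299a-5p, at chr12:109710644-109710665, had 342 counts against 1925 (log2 ratio -1.93, interval -2.10 to -1.77), miR-494-3p 332 against 1401 (-1.52) and miR-154-3p 47 against 161 (-1.22). miR-134-5p had 2022 against 5240 (-0.81). The members fell into 3 stretches: 30 lay between 111 and 166 kb from the start of Dlk1 (median -0.29), 66 between 257 and 295 kb (median -0.53, 23 of them lower past the limit) and the arms of miR-1247 near Dio3 at 826 kb, with 26 against 97 counts for miR-1247-5p (-1.34). Of the transcripts that carry these miRNAs, Rian had 46275 counts against 32170 (0.71) and Mirg 1739 against 1423 (0.48) in RNA-seq, both above 0. Meg3 had 41918 against 56273 (-0.24), below 0 as most miRNAs of the region were, while the arms of miR-770 inside it were at 0.30 and 0.47.

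**Figure D3:**
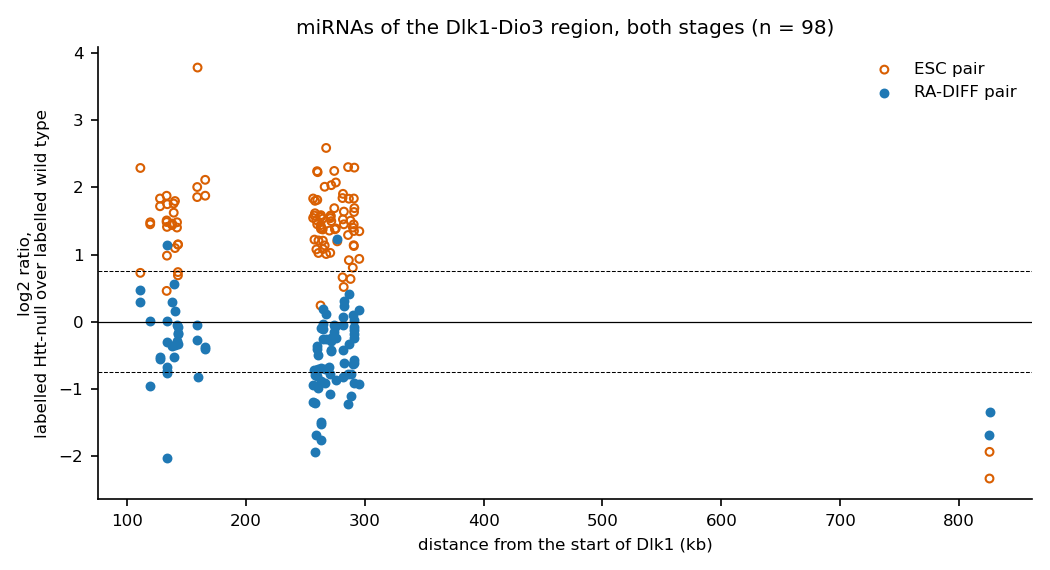
Filled points give the RA-DIFF log2 ratio and open points the ESC log2 ratio (labelled Htt-null over labelled wild type) of the 98 members of the Dlk1-Dio3 region against their distance from the start of Dlk1 in kb. In ESC 96 of 98 lie above 0, with a median of 1.48, and in RA-DIFF 80 of 98 lie below 0. The arms of miR-1247, at 826 kb, lie below 0 at both stages, and dashed lines mark 0.75 in each direction.

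Other imprinted loci gave mixed values. miR-335, in an intron of Mest on chromosome 6, had 8100 counts against 29496 for its 3p arm (log2 ratio -1.30) and 6505 against 11062 for its 5p arm (-0.21), while Mest itself had 255493 against 26349 (3.46). miR-483-3p, in Igf2, had 195 against 124 (1.21) and Igf2 43494 against 17716 (1.48). miR-298-5p had 91607 against 132405 (0.03). The miRNAs in the intron of Sfmbt2 on chromosome 2, which share sequences among many copies and are uncertain for that reason, had 22 of 33 members below 0, 6 lower past the limit and 0 higher past it (median -0.23). Over all members 396 of 744 were below 0 and 14.9% were lower past the limit, so the share past it in this cluster was near that of all members. One of those with at least 100 counts was miR-467a-5p, at 534 against 1499 counts (-0.93). The X-linked miR-465 and miR-743 region had 10 of 12 members above 0 and 2 past the limit, a share near the 15.6% of all members, with miR-470-5p at 312 against 227 (1.02).

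Of the 10 largest ratios among members with at least 100 counts, 3 have not yet been given. They were miR-295-5p, with 117 against 47 counts (log2 ratio 1.88), and, outside the lists, let-7j, with 156 against 63 (1.87), and miR-3085-3p, with 493 against 200 (1.86). At the lower end stood miR-31-5p, at 311 against 1106 (-1.27). The 22 miRNAs that the study singled out from these libraries had 18 members below 0, 8 lower past the limit (14.9% over all members) and 3 higher past it (15.6%), which is not independent evidence of a direction because they were picked from the same counts.

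The arms of a hairpin offer a second reading of the same transcript. Of 113 hairpins with both arms at 100 counts or more, 82 had both arms on the same side of 0, and the median absolute difference between arms was 0.30. Across these hairpins, which share their libraries, Spearman's correlation was 0.57. In 10 hairpins the arms differed by more than 0.75. miR-7068 had a 5p arm at 3237 counts against 9687 (log2 ratio -1.02) and a 3p arm at 163 against 138 (0.80). In miR-299a, shown above, the 5p arm was at -1.93 and the 3p arm, with 662 counts against 1695, at -0.80. In the opposite order, miR-152-5p had 1254 against 889 (1.06) and miR-152-3p 376 against 642 (-0.21), and miR-433-5p 332 against 333 (0.56) and miR-433-3p 895 against 1893 (-0.52).

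Genes that carry or adjoin a miRNA were read in the RNA-seq libraries of the same labels. Among 36 such genes, 18 had the sign of the median of their miRNAs, and among 31 with the miRNA inside the gene on the same strand, 17 did. Of the 11 of these that passed a log2 ratio of 0.75, 8 had the sign of the median of their miRNAs: Dnm3os, Igf2, Slit2 (1.75, with miR-218-1-3p at 1.17), Trpm1 (1.03, with miR-211-5p at 0.84), Trpm3 (1.50, with miR-204-5p at 0.60), Copz2, Hoxc5 and Mir17hg (2003 against 7889 counts, -1.79, with a median of -0.25 over its miRNAs). That sign was shared by 1 of 2 miRNAs in Copz2 and by 4 of 5 in Mir17hg. The other 3 were Mest, Mir22hg (1.15, with miR-22 at -0.33) and Slit3 (2.10, with miR-218-2-3p at -1.47). Hoxb4, next to miR-10a, had 390 against 1053 counts (-1.25). A like sign in both assays was seen in some genes and not in others, and whether both assays used RNA from the same culture is not given in the sources used here.

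**Figure D4:**
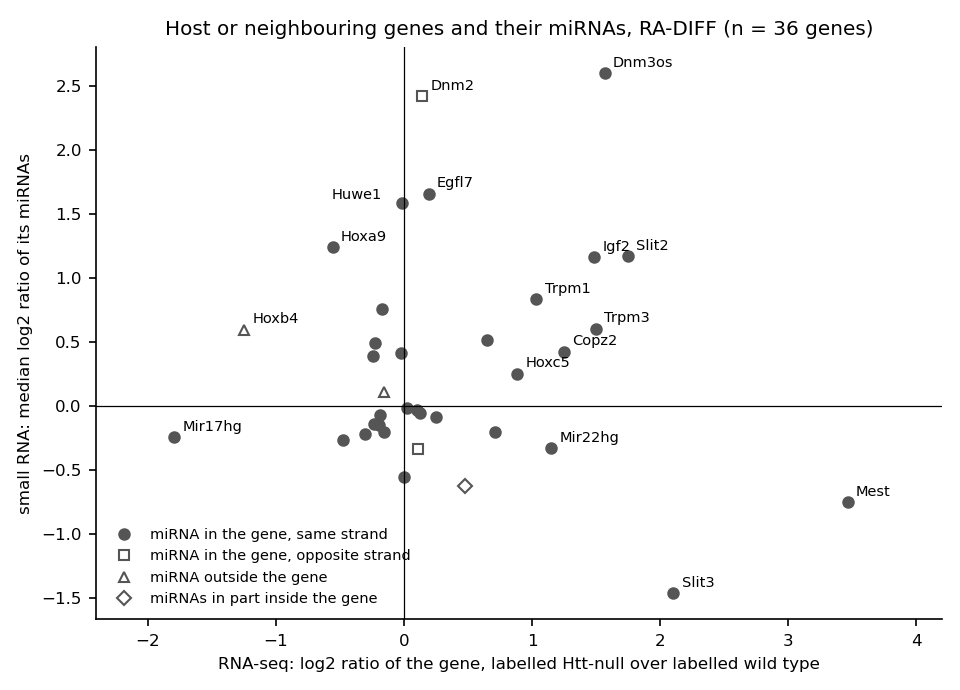
Each point is a gene, with its RNA-seq log2 ratio on the horizontal axis and the median small RNA log2 ratio of its miRNAs on the vertical axis, both labelled Htt-null over labelled wild type in RA-DIFF. Filled points mark miRNAs in the gene on the same strand, squares those on the opposite strand triangles those outside it and the diamond Mirg, of whose 3 miRNAs miR-379-5p lies outside the gene as counted. Dnm3os lies at the upper right (1.57 and 2.60) and Mest and Slit3 at the lower right.

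The same members were read in ESC, where the Htt count was lower in the Htt-null library. Of the 665 members with at least 10 counts in an ESC library, 165 (24.8%) were higher past 0.75 in the Htt-null ESC and 109 (16.4%) were lower. The ratios of the stages ran against each other more than with each other. Across 414 members with at least 100 counts in RA-DIFF and 10 in ESC, Spearman's correlation was -0.34, a description in which members of a cluster are not independent points. Past the limit at both stages, 7 members had one direction and 29 had opposite directions, of which 21 were lower in RA-DIFF and higher in ESC and 8 the reverse.

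Of these 21 members, 15 came from the Dlk1-Dio3 region and 5 from miR-302 to miR-367. Among the 414 members compared, 66 were of the Dlk1-Dio3 region and 5 of miR-302 to miR-367. Over all its members, whatever their counts, the Dlk1-Dio3 region had 78 below 0 in RA-DIFF and above 0 in ESC. In miR-302 to miR-367 all 8 members were higher in the Htt-null ESC (median 1.80), with miR-302d-3p at 5120 counts against 1508. The miR-290 to miR-295 cluster (14 of 14 lower in the Htt-null ESC, median -0.45), let-7 (9 of 9 lower, median -0.67) and the X-linked miR-465 and miR-743 region (12 of 12 lower, median -1.06) were the reverse case. The miR-200 family was lower at both stages (median -0.55 in ESC). The gap between both clusters also differed by stage: miR-295-3p, with 1292268 and 1789041 counts in ESC, had 44739 and 27199 in RA-DIFF, whereas miR-302b-3p had 1462 and 528 in ESC and 1007 and 3288 in RA-DIFF.

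**Figure D5:**
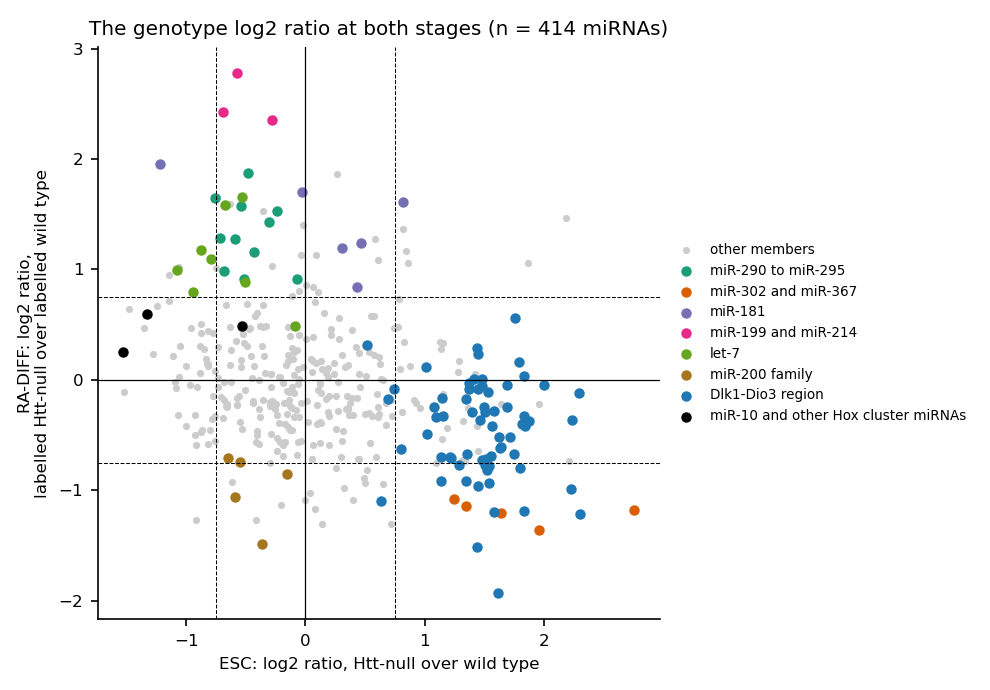
Each point is 1 of 414 members, with the ESC log2 ratio (Htt-null over wild type) on the horizontal axis and the RA-DIFF log2 ratio (labelled Htt-null over labelled wild type) on the vertical axis. Dashed lines mark 0.75. The Dlk1-Dio3 region and miR-302 to miR-367 fill the lower right, miR-290 to miR-295 and let-7 the upper left, and the miR-200 family the lower left.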

How the data were processed

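The authors deposited raw counts per mature miRNA, made from adapter-trimmed small RNA reads (cutadapt 1.3) that BWA 0.7.5a-r418 aligned to miRBase with 1 difference allowed, unique alignments only. Their RNA-seq files hold deposited raw counts per gene, from strand-specific reads on GRCm38 (TopHat2 2.0.14, HTSeq 0.6.1). Tool versions are from the submitters' processing notes. Here edgeR 4.0.16 gave TMM factors, fitted on the 4 libraries of each assay, and log2 ratios were taken from scaled counts with no prior count. Intervals are exact binomial (Clopper-Pearson) at 95%, and the calculation was tested on simulated data. With 1 library per condition, a member past 0.75 is counted, not tested. The exact test named below rests on an assumed dispersion, was run only as an alternative and gives no p here. RefSeq gave positions for 739 members. Of the 631 members with a sequence, 29 lie within 1 base of another of the same length, and reads shared by such miRNAs cannot be placed.

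Named miRNAs were the 10 highest and 10 lowest ratios among members with at least 100 counts, the 10 most abundant, and members of the lists, of the chromosome 12 and chromosome 2 regions and of hairpins whose arms differ most, with host and marker genes. Chosen after their values were seen, outside this rule, were miR-122-3p, miR-216a, miR-216b, miR-217, miR-221-3p, miR-222-3p and the let-7 processing genes. The members and lists were chosen with earlier results of these data known. Alternatives covered scaling, count minimum, limit, prior count and an edgeR exact test at the thresholds of the study's methods (DESeq2 1.42.0 for size factors).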

Additional observations from a re-analysis of the deposited data

Results flagged for a closer look

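Given here are the list medians past 0.75 at both stages in opposite directions, and the miRNAs of which this held among the 10 highest, the 10 lowest and the 10 most abundant, with at least 100 counts in an ESC library. The difference between the stages was not tested, since each condition has 1 library. The miR-302 to miR-367 list had a median log2 ratio (labelled Htt-null over labelled wild type) of -1.16 in RA-DIFF and 1.80 in ESC, and its member miR-302c-3p -1.36 and 1.96. On chromosome 12, miR-154-3p had -1.22 and 2.30, miR-299a-5p -1.93 and 1.61, and miR-494-3p -1.52 and 1.44. These signs rest on the genotype labels of the RA-DIFF pair. Exchanging the labels would give these items one direction at both stages, which follows from how they were picked. The miR-200 family, lower at both stages (medians -0.86 in RA-DIFF and -0.55 in ESC), would then have opposite directions.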

How the results depend on the processing

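Of 116 members higher and 111 lower past 0.75, library size alone gave 57 and 271, library size without miR-10a-5p and miR-10b-5p gave 171 lower, a minimum of 100 counts gave 55 and 47, a minimum of 1 count 197 and 176, and a limit of 1 gave 68 lower. An edgeR exact test at the thresholds of the study's methods, which name edgeR but no kind of test, gave 37 and 7 at an assumed dispersion of 0.1, and 69 lower at 0.01. The dispersion rests on no replicates, so no p is given. TMM over the RA-DIFF pair alone, DESeq2 size factors and a counting interval that excludes a ratio of 1 kept both counts within 1.5 times. Under library size alone 5 of 27 list medians changed sign, under DESeq2 size factors 1, and under library size without miR-10a-5p and miR-10b-5p 2. None did under a prior count of 2. No library could be left out. No paired analysis was possible because each condition has 1 library.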
